A study of Mus musculus with 4 samples.

Results

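Myosin heavy chains are the motor subunits of myosin II, the protein that pulls on actin in muscle sarcomeres and in the contractile bundles of other cells. The genes described here are Myh1, Myh2, Myh3, Myh4, Myh6, Myh7 and Myh8, which encode sarcomeric chains, and Myh9, Myh10 and Myh14, which encode non-muscle chains. Every non-control probe that carried 1 of these 10 gene names in the scanner files was taken, whatever its value. They made up 24 of the 41174 probes of the array and 10 of its 27745 gene names, with 18 probes for the 7 sarcomeric genes and 6 for the 3 non-muscle genes.

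RNA came from C2C12, a line derived from mouse muscle satellite cells whose myoblasts fuse into myotubes when serum is withdrawn. Treated cells received 20 nM GDF8, which is recombinant mouse myostatin, every 24 h through 6 days of differentiation, and control cells received none over the same 6 days. Each of 4 two-colour arrays paired 1 treated with 1 control RNA. Replicates 2 and 3 had GDF8 RNA labelled with Cy5, read in red, and replicates 1 and 4 with Cy3, read in green. Both groups were grown in 10% fetal bovine serum, and the horse serum of the differentiation medium is 2% in one label and 10% in another. The samples stand for 1 cell line. The labels call them biological replicates without saying that cultures were separate, so p-values measure the spread between these samples, which may be technical.

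The sarcomeric chains differ in when and where they are made. Embryonic Myh3 and perinatal Myh8 mark developing and regenerating fibres, adult fast fibres use Myh2 (type IIa), Myh1 (type IIx) and Myh4 (type IIb), and slow fibres use Myh7, the beta chain shared with heart, while Myh6 is the alpha chain of heart. The non-muscle chains IIA, IIB and IIC, encoded by Myh9, Myh10 and Myh14, serve cell shape, adhesion and division. Myostatin is a secreted TGF-beta family ligand that signals through activin receptors and Smad proteins and limits muscle mass.

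The fast and developmental genes lie side by side. In the RefSeq annotation of mouse assembly GRCm38.p6, chromosome 11 holds Myh3, Myh2, Myh1, Myh4, Myh8 and Myh13 as consecutive protein-coding genes, and chromosome 14 holds Myh6 next to Myh7. Myh10 lies elsewhere on chromosome 11, Myh14 on chromosome 7 and Myh9 on chromosome 15. The stretches below are printed because 4 neighbours of the cluster share runs of bases just ahead of their starts. Capitals mark bases inside runs of 12 or more that at least 3 of these 4 promoters hold. All 4 lie on the plus strand and each stretch is 75 bases long.
Myh8, chr11:67277009-67277083: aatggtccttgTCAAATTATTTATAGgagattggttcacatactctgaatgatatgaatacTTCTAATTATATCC
Myh1, chr11:67199881-67199955: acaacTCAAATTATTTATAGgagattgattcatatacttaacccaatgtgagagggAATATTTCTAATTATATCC
Myh2, chr11:67170841-67170915: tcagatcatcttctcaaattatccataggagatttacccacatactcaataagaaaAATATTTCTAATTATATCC
Myh4, chr11:67237593-67237667: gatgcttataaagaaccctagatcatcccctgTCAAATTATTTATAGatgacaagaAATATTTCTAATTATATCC

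The 14-base run ttctaattatatcc stood in all 4 and in no other of 32851 RefSeq promoter windows, searched over the 250 bases before each start on both strands. It ended 41 bases before the start in Myh8, 147 in Myh1, 112 in Myh2 and 145 in Myh4. A second run of 15 bases, tcaaattatttatag, was present in Myh8, Myh1 and Myh4, and Myh2 had its closest match, tcaaattatccatag, with 2 mismatches. The 3 exact copies of the second run hold a match to the MEF2 site, which occurred in 2.92% of all windows. Its letters overlap a reverse match to TATAAA, found in 12.4% of windows. An E-box, CANNTG, was found before 8 of the 10 genes, all but Myh1 and Myh2, and in 66.2% of windows. The CArG box was found before Myh4 and in 1.47% of windows, and CATTCC, the MCAT element, before Myh1, Myh4, Myh6, Myh7 and Myh10 and in 12.6%. The Smad element CAGAC was found before Myh2, Myh6, Myh7, Myh9, Myh10 and Myh14 and in 42.2% of windows. These matches describe letters in the reference and do not identify bound sites.

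The sarcomeric probes fell into those too bright to measure and those within range. A spot whose signal reached the ceiling of the scanner, near 65261 units in red and 65299 in green, was marked saturated by the scanner software. Of the 24 probes, 8 from Myh1, Myh3, Myh4, Myh7, Myh8 and Myh9 were saturated in untreated RNA on all 4 arrays, and the Myh9 probe was saturated in GDF8 RNA on all 4 as well. Myh3 and Myh7 had no other probe. A second Myh4 probe was saturated in red on all 4 arrays and in green on none. Of the remaining probes, 13 were within range in both dyes and entered the test, and 2, of Myh8 and Myh10, were too dim for it. Where a group was saturated throughout, no ratio was read as a change, only a bound from the green channel.

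**Figure D1:**
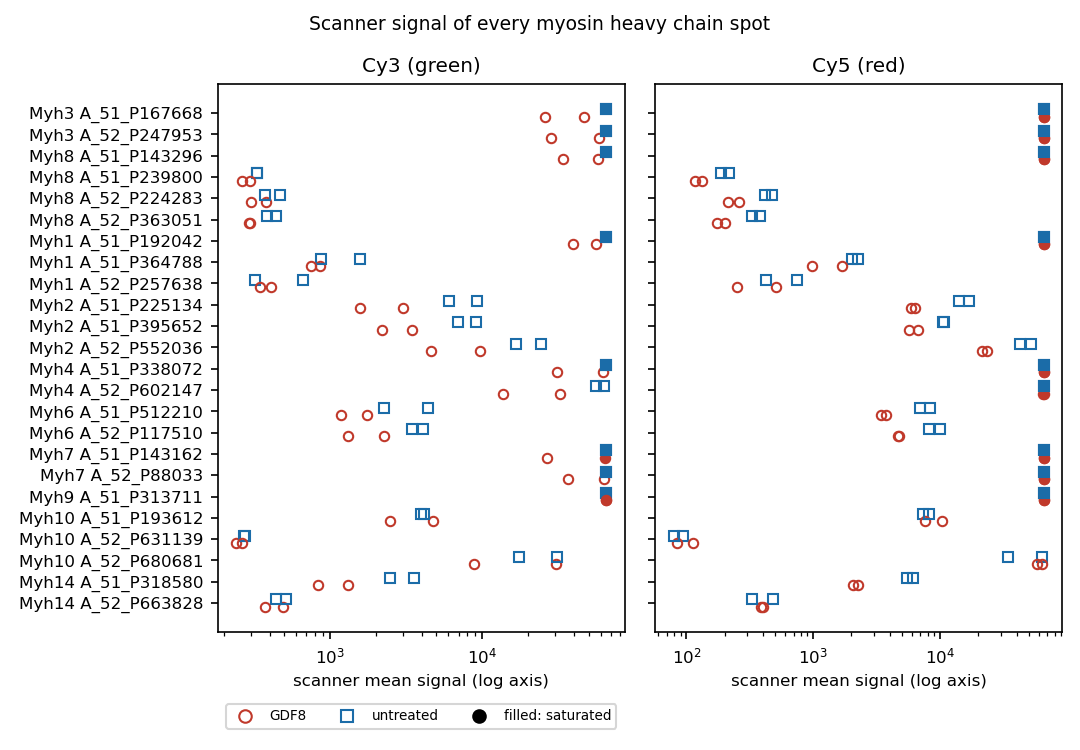
Scanner mean signal (log axis) of every myosin heavy chain probe in Cy3 (left) and Cy5 (right), 1 point an array, with GDF8 RNA as red circles, untreated RNA as blue squares and saturated spots filled. In Cy5, 9 probes lie at the ceiling on all 4 arrays, while in Cy3 the GDF8 circles of Myh2, Myh6 and Myh14 A_51_P318580 lie left of the untreated squares.

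After differentiation in GDF8, 7 of the 22 tested heavy chain probes passed as lower: all 3 of Myh2, both of Myh6, and 1 each of Myh8 and Myh14. The test was limma's moderated test with Benjamini-Hochberg adjustment over 26895 probes at a threshold of 0.05. Among all those probes 1.95% were called lower and 0.773% higher. No heavy chain probe was called higher by limma, and 0 were higher under the methods' t-test. At an unadjusted p under 0.05, 0 were higher and 11 lower, among them the saturated Myh3 probe A_51_P167668. The share of all probes at that unadjusted threshold was not counted, so unadjusted counts here and below lack a background. Of the 13 probes within range, 6 of 9 sarcomeric and 1 of 4 non-muscle probes were called lower, where 2.31% of all such probes were. Of these, 3 dim sarcomeric probes, 2 of Myh8 and 1 of Myh1, were not well above background on every array of both groups. Without them 5 of 6 sarcomeric probes were called lower. Probes with a saturated channel were called lower in 0.367% of cases. Several probes share a gene, so the probe counts are not counts of independent genes.

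Over the 17 tested sarcomeric probes the median log2 ratio of GDF8 over untreated was -0.45, against 0.07 over the 5 non-muscle probes and 0.01 over all probes. Of these 17 probes, 8 had a saturated group or channel. Over the 9 sarcomeric probes within range the median was -0.97, and over the 4 non-muscle probes it was 0.02. Without the 3 dim sarcomeric probes the former was -1.07. With the brightest probe within range standing for each gene, the median was -0.77 over 4 sarcomeric genes and -0.66 over Myh10 and Myh14, so the gap between the classes depends on how probes of 1 gene are combined. By array the median of the 9 sarcomeric probes was -1.03, -1.01, -0.28 and -0.72 for replicates 1 to 4. In these bulk samples, fewer cells of a type and less RNA per cell cannot be told apart.

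**Figure D2:**
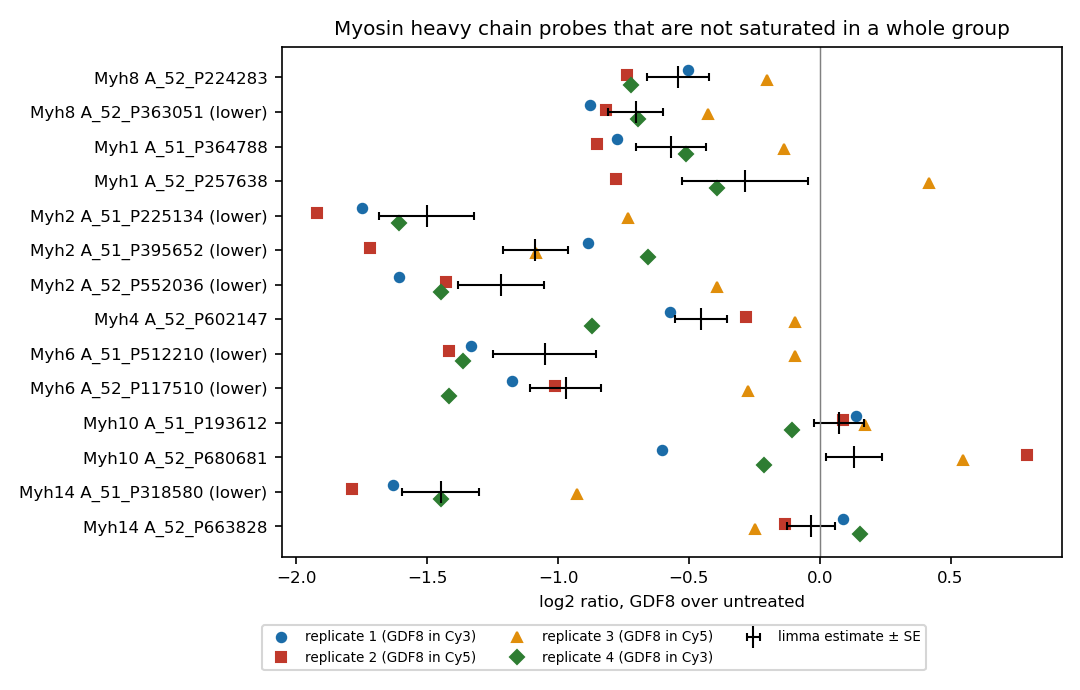
Log2 ratio of GDF8 over untreated RNA in each of the 4 arrays (symbols) and limma's estimate ± SE (bars) for the 14 tested heavy chain probes that are not saturated in a whole group, with "lower" after those past the threshold. The 7 called probes lie left of 0 on all 4 arrays, and replicate 3 lies nearest to 0 in 6 of them.

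Myh2, the fast IIa chain, was lower on all 3 of its probes and was never saturated. For probe A_51_P225134 the normalised log2 signal in untreated RNA was 13.44, 13.59, 12.87 and 13.42 in replicates 1 to 4. In GDF8 RNA it was 11.69, 11.67, 12.13 and 11.82. Every untreated value lay above every GDF8 value, and replicate 3 had both the lowest untreated and the highest GDF8 signal. The log2 ratio was -1.50 ± 0.18 (limma SE, n = 4 arrays; adjusted p = 0.012), or 2.83-fold lower. In the order of the 21989 probes within range, from lowest ratio up, this probe stood at position 9.

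The other Myh2 probes gave similar sizes. For A_52_P552036 the untreated signals were 15.02, 14.99, 14.35 and 15.02 and the GDF8 signals 13.41, 13.56, 13.96 and 13.57. The groups did not overlap, and replicate 3 again had the smallest gap. Its log2 ratio was -1.22 ± 0.16 (limma, adjusted p = 0.015, n = 4 arrays), 2.33-fold lower. For A_51_P395652 the ratios were -0.88, -1.72, -1.09 and -0.66, here with replicate 4 nearest to 0. Its estimate was -1.09 ± 0.13 (limma, adjusted p = 0.011, n = 4 arrays), 2.12-fold lower. Differences between these probes within arrays averaged 0.13 to -0.42 log2 units, with exact sign-change p-values of 0.13 to 0.75. With 4 arrays that test cannot go below 0.13.

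Myh1, the fast IIx chain, had 1 saturated and 2 measurable probes, and neither of the latter passed the test. For A_51_P364788 the untreated signals were 10.39, 10.84, 9.80 and 10.87 and the GDF8 signals 9.61, 9.99, 9.66 and 10.36. The groups overlapped between arrays, although GDF8 was the lower channel on each. The log2 ratio was -0.57 ± 0.13 (limma, adjusted p = 0.093, n = 4 arrays). For A_52_P257638 replicate 1 was dropped as an outlier spot, and the other arrays gave -0.78, 0.42 and -0.39. Their estimate was -0.29 ± 0.24 (limma, adjusted p = 0.81, n = 3 arrays), so this probe did not settle a direction.

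Myh4, the fast IIb chain, was near or at the ceiling on both probes. Probe A_51_P338072 was saturated in untreated RNA throughout. Probe A_52_P602147 was saturated in red on every array and not marked saturated in green. Its green signal was 63284 and 56398 units in untreated RNA of replicates 2 and 3, and 32403 and 13735 units in GDF8 RNA of replicates 1 and 4. The green groups did not overlap, and the untreated spot of replicate 2 had 24.1% of its pixels saturated, so its signal is partly cut off. The ratio from both dyes, with red at its ceiling, was -0.45 ± 0.10 (limma, adjusted p = 0.074, n = 4 arrays).

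For the saturated probes a comparison within the green dye was added after the data had been seen. It sets GDF8 RNA on replicates 1 and 4 against untreated RNA on replicates 2 and 3, after centring each array on the median of the 20073 probes within range and well above background in both dyes. It has 2 arrays a group and was not tested. Over those 20073 probes the difference had a median of 0.05 log2 units and 5th and 95th percentiles of -0.56 and 0.50, and 3.23% were over 1.6-fold lower. Its correlation with the two-dye estimates across these probes was 0.713, where both share the green signals and probes are not independent replicates. By this measure Myh4 A_52_P602147 was at least 2.22-fold lower in GDF8, a measured log2 difference of -1.15 with 1 untreated spot partly cut off. The Myh2 probes gave -1.51, -1.23 and -1.26, close to their two-dye values. Myh4 A_51_P338072, saturated in untreated RNA, was 1.16-fold lower in green. Its GDF8 spot of replicate 1 had 47.5% of its pixels saturated, so this is not a strict bound. Myh1 A_51_P192042, also saturated in untreated RNA, was 1.09-fold lower in green, with GDF8 values that overlapped the untreated ones.

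Embryonic Myh3 was saturated in untreated RNA on both probes, and its GDF8 signal stayed below the ceiling in green. For A_51_P167668 the green GDF8 signals were 46476 and 25709 units in replicates 1 and 4, against the ceiling in both untreated arrays. After centring, the GDF8 values were 4.16 and 4.33 and the untreated ones 4.84 and 4.76, so GDF8 was at least 1.48-fold lower in green. For A_52_P247953 the green signals were 58380 and 28532 units and the bound was at least 1.25-fold lower. Over both dyes the mean untreated signal of the 2 probes was 1.17-fold and 1.1-fold above that of GDF8. With median centring it was 1.29-fold and 1.18-fold above. GDF8 itself was saturated on 2 arrays, so these two-dye values are not bounds. The true differences cannot be read, since the untreated signal is cut off. Among all 73 probes of this kind the median bound was 1.16-fold, and 13.7% had a bound over 1.6-fold.

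Perinatal Myh8 was also saturated on its bright probe. A_51_P143296 gave a bound of at least 1.15-fold lower in GDF8 by the green channel. That is close to the median bound of 1.16-fold among all 73 probes of this kind, so it does not set Myh8 apart from them. The other 3 probes were dim, and A_51_P239800 was well above background on 1 array in each group and was not tested. For A_52_P363051 the untreated signals were 8.16, 8.30, 8.04 and 8.37 and the GDF8 signals 7.28, 7.48, 7.61 and 7.68. These groups did not overlap, and the log2 ratio was -0.70 ± 0.11 (limma, adjusted p = 0.019, n = 4 arrays), 1.63-fold lower. This probe was well above background in GDF8 RNA on 2 of 4 arrays and entered the test through the untreated group. Its call was lost without replicate 1, 2 or 4 (limma, adjusted p = 0.054, 0.11 and 0.053). For A_52_P224283, which entered the same way with 3 of 4 GDF8 arrays, the ratio was -0.54 ± 0.12 (limma, adjusted p = 0.070, n = 4 arrays). In green alone the differences of these dim probes were smaller, at -0.44 and -0.13.

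**Figure D3:**
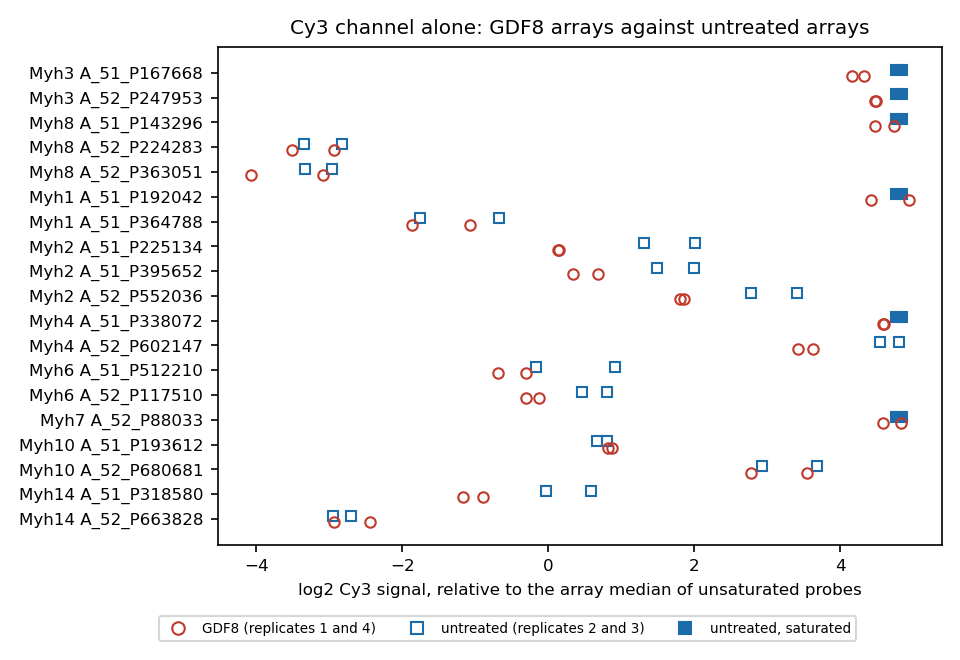
Cy3 signal of heavy chain probes, as log2 units relative to each array's median of unsaturated probes, with GDF8 RNA of replicates 1 and 4 as circles and untreated RNA of replicates 2 and 3 as squares, filled where saturated. Circles lie left of squares for all 3 Myh2 probes, both Myh6 probes, Myh4 A_52_P602147 and Myh14 A_51_P318580, and for Myh3 they lie left of a saturated bound.

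Myh6, the alpha cardiac chain, was lower on both probes. For A_52_P117510 the untreated signals were 12.41, 12.37, 12.01 and 12.92 and the GDF8 signals 11.23, 11.36, 11.73 and 11.50. The groups did not overlap, and the log2 ratio was -0.97 ± 0.14 (limma, adjusted p = 0.016, n = 4 arrays), 1.96-fold lower. For A_51_P512210 the ratios were -1.33, -1.42, -0.09 and -1.36, with replicate 3 close to 0 and the other 3 arrays close to each other. The estimate was -1.05 ± 0.20 (limma, adjusted p = 0.042, n = 4 arrays), 2.07-fold lower. This call was lost without replicate 1 (adjusted p = 0.093), without replicate 2 (0.059) and without replicate 4 (0.13), and it was kept without replicate 3. It was also lost with no dye term (0.056), no replicate block (0.077, or 0.12 with the dye term kept), the authors' deposited table (0.056), processed signals (0.071), no filter on dim probes (0.062) and the methods' t-test after adjustment (0.35), which makes 10 of 15 alternatives with a test. The call of A_52_P117510 was lost without replicate 4 (adjusted p = 0.062).

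Of 10 tested probes of the cardiac list, 2 were called lower and 0 higher, and at an unadjusted p under 0.05 there were 3 lower and 3 higher. Tnni3, cardiac troponin I, was lower on both probes, with log2 ratios of -1.43 and -1.40 (limma, adjusted p = 0.012 and 0.014, n = 4 arrays). The other 8 did not pass in either direction, among them 1 probe of Tnnt2, cardiac troponin T, at -0.48 (limma, adjusted p = 0.22), Nkx2-5 at 0.21, Gata4 at -0.16 and -0.07 and Nppb at 0.51 on each of its probes. The second Tnnt2 probe was saturated in a whole group, so a change in it could not be read. Myl7, the atrial light chain, was well above background on 1 array in each group. The part of cardiac gene expression in the Myh6 result was not tested.

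Myh7, the slow and beta cardiac chain, gave no measurable change. A_51_P143162 was saturated in untreated RNA on 4 arrays and in GDF8 RNA on 3. A_52_P88033 was saturated in untreated RNA on 4 arrays, and its green GDF8 values overlapped the ceiling after centring. The genes Myh6 and Myh7 lie side by side, but their levels cannot be compared because they rest on different probes.

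Myh14, non-muscle chain IIC, had 1 probe that fell and 1 that did not pass. For A_51_P318580 the untreated signals were 11.99, 12.13, 11.52 and 12.10 and the GDF8 signals 10.36, 10.34, 10.60 and 10.65. The groups were far apart on every array, including replicate 3. The log2 ratio was -1.45 ± 0.15 (limma, adjusted p = 0.008, n = 4 arrays), 2.73-fold lower, which is position 14 from the lowest of the 21989 probes within range. It stayed lower under all 18 alternatives tried, past the threshold in each that had a test, and was -1.30 in green alone.

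The second Myh14 probe, A_52_P663828, gave ratios of 0.09, -0.13, -0.25 and 0.15, and an estimate of -0.03 ± 0.09 (limma, adjusted p = 0.95, n = 4 arrays). Its untreated signals were 8.41, 8.37, 8.80 and 8.28 and its GDF8 signals 8.50, 8.24, 8.55 and 8.44. It was well above background on every array of both groups but far dimmer than the first probe. Both probes carry the same transcript accession in the scanner files. Their ratios differed by -1.72, -1.66, -0.68 and -1.60 in replicates 1 to 4, a mean of -1.42 ± 0.49 (SD, n = 4). The first probe was the lower on 4 of 4 arrays, with an exact sign-change p of 0.13, the smallest possible, and 0.44 after adjustment over the 7 probe pairs compared. The change in Myh14 thus rests on 1 of its 2 probes, the brighter.

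Myh10, non-muscle chain IIB, passed on no probe. For A_51_P193612 the untreated signals were 12.24, 12.39, 12.23 and 12.64 and the GDF8 signals 12.38, 12.48, 12.40 and 12.54. These groups overlapped, and the log2 ratio was 0.07 ± 0.09 (limma, adjusted p = 0.88, n = 4 arrays). For A_52_P680681 the ratios were -0.60 and -0.21 with GDF8 in green and 0.79 and 0.55 with GDF8 in red, so the sign followed the dye. In red, up to 44.6% of the pixels of its spots were saturated. With the dye term the estimate was 0.13 ± 0.11 (limma, adjusted p = 0.79, n = 4 arrays). The third probe, A_52_P631139, was not well above background on any array.

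Myh9, non-muscle chain IIA and a major myosin of fibroblasts and myoblasts, had 1 probe, which was saturated in both groups on all 4 arrays. Its data show a signal above the measuring range and nothing about a change. In the authors' deposited table this probe is listed at 0.81, -1.32, -0.89 and 1.77 for replicates 1 to 4, positive with GDF8 in green and negative with GDF8 in red. The same table lists the 8 probes saturated in untreated RNA between 0.40 and 1.77 on replicates 1 and 4 and between -1.36 and -0.84 on replicates 2 and 3. All 8 therefore change sign with the dye orientation in that table. After loess here, they lay between -0.18 and 0.81 and between -0.31 and -0.26 on the same pairs of arrays.

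Replicate 3 had the smallest change in most sarcomeric probes within range. Of the 8 such probes with a value on 4 arrays, all 8 were below 0 on every array, and 7 had replicate 3 nearest to 0. They include the dim Myh8 probes A_52_P363051 and A_52_P224283, which entered the test through the untreated group. The share of all probes below 0 on every array was not counted. Without replicate 3, 9 heavy chain probes were called lower in place of 7, with Myh1 A_51_P364788 (-0.75, limma adjusted p = 0.033) and Myh8 A_52_P224283 (-0.68, limma adjusted p = 0.049) added. Without replicate 4, 4 probes were called lower.

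Myosin works with partner proteins in the thick filament, and most of these were lower too. Of 10 probes for 7 partners, limma called 6 probes of 5 genes lower and 0 higher, where 1.95% of all probes were called lower. At an unadjusted p under 0.05 there were 7 lower and 0 higher. The Mybph and Myom2 probes, 3 in number, were saturated in a whole group, so a change in them could not be read. The median log2 ratio was -0.85 over the 10 probes and -1.17 over the 6 never saturated. The myosin-binding proteins C, which cross-link the filament, were lower by -1.34 ± 0.10 (Mybpc1), -1.68 ± 0.18 (Mybpc2) and -1.48 ± 0.12 (Mybpc3), with limma adjusted p-values of 0.0063, 0.0088 and 0.0063 (n = 4 arrays). The M-band protein Myom1 gave -0.96 ± 0.13 and -0.99 ± 0.19 on 2 of its 3 probes (limma, adjusted p = 0.016 and 0.046, n = 4 arrays). Myom3 gave -0.75 ± 0.09 (limma, adjusted p = 0.012, n = 4 arrays) with 2 channels of each group saturated. Of the 6 called probes, 5 had replicate 3 nearest to 0.

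**Figure D4:**
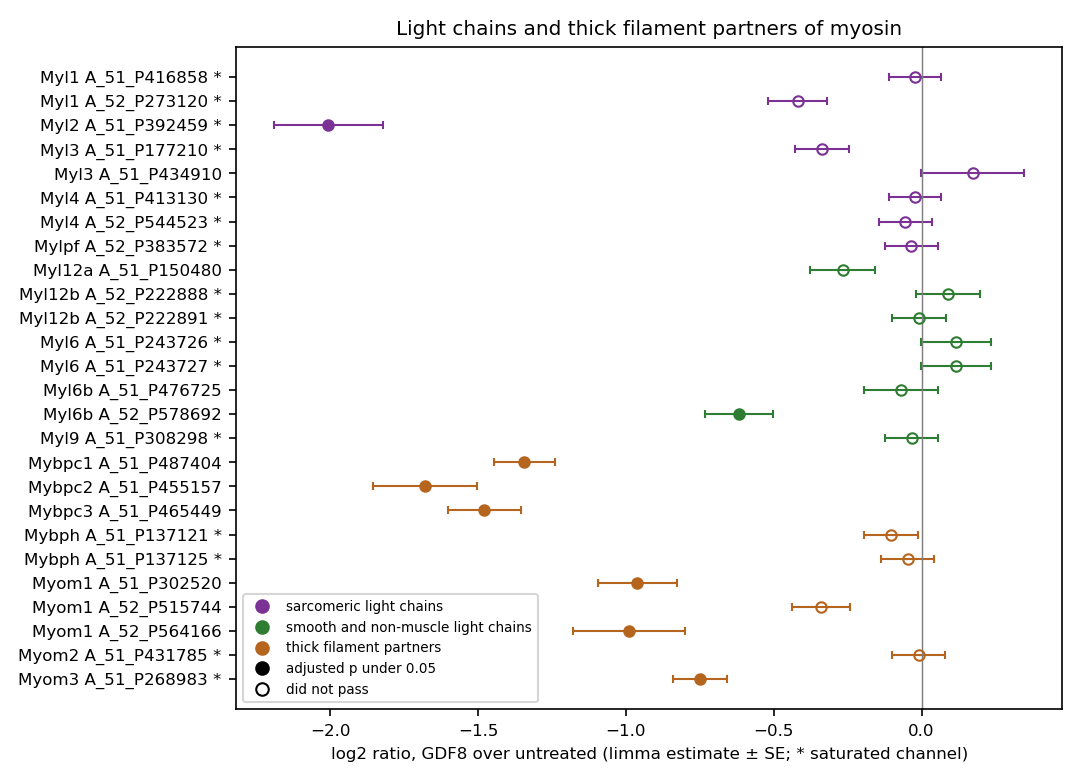
Log2 ratio of GDF8 over untreated RNA (limma estimate ± SE) for each probe of the light chain and thick filament lists, coloured by list, filled where the adjusted p is under 0.05 and starred where a channel is saturated. Myl2 and the 3 myosin-binding protein C probes lie farthest below 0, and the starred probes of Mybph, Myl4 and Mylpf lie near 0.

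Light chains sit on the neck of each heavy chain, and here the values were mostly beyond the range. Of 8 tested sarcomeric light chain probes, 5 were saturated in a whole group and 1 was called lower. Myl2, the slow and ventricular regulatory light chain, was 4.02-fold lower, with ratios of -2.46, -2.16, -0.94 and -2.46 and an estimate of -2.01 ± 0.18 (limma, adjusted p = 0.0067, n = 4 arrays). It was saturated in 1 untreated channel. Myl1, a fast essential light chain, gave -0.42 ± 0.10 (limma, adjusted p = 0.098, n = 4 arrays) with 3 of 4 untreated channels saturated. Among 8 probes of smooth and non-muscle light chains, Myl6b was lower on 1 of its 2 probes at -0.62 ± 0.12 (limma, adjusted p = 0.041, n = 4 arrays), and Myl12a at -0.27 (adjusted p = 0.38) did not pass. Of these 8 probes, 3 were saturated in a whole group.

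Genes that fold myosin or change its activity showed few calls. None of the 12 probes for folding and assembly factors was called by limma, and 4 were lower and 0 higher at an unadjusted p under 0.05. Of the 12, 4 probes of Hsp90aa1, Hspa8 and Smyd2 were saturated in a whole group, so a change in them could not be read. The smallest limma adjusted p-values were those of Trim63 (-0.43, adjusted p = 0.078) and Unc45b (-0.41, adjusted p = 0.10), the latter with 2 channels of each group saturated. Unc45b is the muscle chaperone of the myosin head, and Trim63 (MuRF1) is a ubiquitin ligase that marks heavy chains for degradation. Of 15 probes for myosin kinases and phosphatase subunits, 1 of Ppp1r12b, a targeting subunit of myosin phosphatase, was lower at -0.69 ± 0.10 (limma, adjusted p = 0.017, n = 4 arrays). Other Ppp1r12b probes did not pass, with the next at -0.25 (adjusted p = 0.37). Of the other class II heavy chains, Myh11 of smooth muscle was well above background on 1 array in each group and Myh13 on none, and neither was tested.

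Among regulators known to set heavy chain choice, 5 of 31 tested probes were lower and 1 was higher. Of the 31, 5 were saturated in a whole group, so a change in them could not be read. Mef2c, a MADS-box activator of muscle genes, was 1.94-fold lower at -0.95 ± 0.11 (limma, adjusted p = 0.012, n = 4 arrays). Ppargc1a, a coactivator tied to oxidative fibres, was lower on both probes at -0.83 and -0.77 (limma, adjusted p = 0.033 and 0.018, n = 4 arrays). Tbx15, a T-box factor of glycolytic fibres, was lower on 2 of 3 probes at -0.56 and -0.71 (limma, adjusted p = 0.046 and 0.017, n = 4 arrays). Prox1, a homeobox factor linked to slow fibres, was 1.50-fold higher at 0.59 ± 0.11 (limma, adjusted p = 0.040, n = 4 arrays). Myod1 did not pass and had saturated channels on its probe, and Myog was saturated in a whole group. Mstn, which encodes myostatin itself, was not well above background in any GDF8 channel and was so in 1 untreated channel.

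Few markers of differentiated muscle could be measured. Of 9 probes of differentiated muscle genes, 7 were saturated in a whole group, and Ckm, muscle creatine kinase, was the 1 probe called lower, at -0.93 (limma, adjusted p = 0.042, n = 4 arrays). Of 9 tested probes of proliferating myoblast markers, 6 were higher, from Ccnb1, Mki67 and Top2a, where 0.773% of all probes were called higher. A second Mki67 probe, partly saturated, did not pass at 0.34 (limma, adjusted p = 0.13). Pax7 at 0.19 and Myf5 at 0.03 did not pass either. No probe of the smooth muscle, adipocyte or bone lists was called by limma. Of 9 tested smooth muscle probes, 4, of Acta2 and Tagln, were saturated in a whole group, so a change in them could not be read. At an unadjusted p under 0.05 the smooth muscle list had 1 lower, a saturated Acta2 probe, and 3 higher. The bone list had 1 lower and 1 higher, and the adipocyte list 0. The part of these marker differences in the heavy chain results was not tested.

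The probe sequences were not used here, and heavy chain genes are alike in sequence. Binding of 1 isoform's RNA to another isoform's probe was not tested.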

How the data were processed

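The deposited scanner files hold, per the file headers, the intensity of each spot (mean signal and median local background) in red and green. Per the file headers they also give a log10 ratio of red over green, and other columns with flags for saturation, outliers and signal well above background. Log2 ratios form the table of values that the authors deposited. They equalled the log2 ratio of the processed signals, oriented as GDF8 over untreated, for 100% of 40929 single-spot probes at a tolerance of 0.001. Its columns were not centred (medians 0.14, -0.09, -0.11 and 0.09). The authors used GeneSpring with an unpaired t-test on a fold over 1.6, per the labels' design text; that rule was run as an alternative, called the methods' t-test.

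Each array had 43379 non-control spots. In red 9.20% to 12.1% and in green 0.74% to 5.49% of them were saturated, and 63.3% to 78.8% were well above background. The number of arrays limits precision. The arrays lay on 1 slide.

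Mean signals were background-corrected (normexp, offset 50) and loess-normalised within arrays in limma 3.58.1 under R 4.3.3. Control spots had weight 0, outlier spots were dropped, and spots of a probe were averaged. Single-channel signals were then scaled by Aquantile. A probe entered if either group had it well above background on its 4 arrays (26937 passed and 26895 could be tested). Log ratios were fitted in limma with terms for GDF8 and for dye, each probe on its own, with the array as block; ± is the standard error of that fit. The labels' replicate numbers pair the samples because each pair shares an array. On ratios simulated for this comparison over 26579 probes, 89.6% of 67 probes changed 1.5-fold and 100% of 67 changed 2-fold were recovered. Of unchanged probes 0.091% were called. The simulated noise was independent between probes and arrays, with no saturation and no array apart from the others. These rates may therefore not hold for the real arrays.

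Every heavy chain probe was named, whatever its value. Genes of other lists were named if past the threshold or if among the 2 smallest p-values of a list. Marker genes named below a threshold were chosen after their values were seen. The members and lists were chosen with earlier results of these data known. Promoters came from RefSeq for GRCm38.p6 and matched all 10 genes. The array's genome build is not given in the sources used here. A result for 1 listed gene is not reported here.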

Additional observations from a re-analysis of the deposited data

Results flagged for a closer look

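In 3 of 22 heavy chain results searched, 1 array lay farther from the other 3 than Dixon's critical value for 4 samples allows, and in each it was replicate 3. Chance marks about 1 such result in 20, and results of 1 array are not independent. For Myh6 A_51_P512210 replicate 3 gave a log2 ratio of -0.0935, with a gap of 0.938 of the range. For Myh2 A_52_P552036 it gave -0.393, with a gap of 0.853. The difference between the Myh14 probes A_51_P318580 and A_52_P663828 was -0.68 in replicate 3, with a gap of 0.885.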

How the results depend on the processing

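Of the 7 heavy chain probes called lower, Myh14 A_51_P318580 kept its call in every alternative with a test, and no alternative turned the direction of any of the 7. Under the methods' t-test with Benjamini-Hochberg adjustment 1 heavy chain probe, 74 of all probes lower and 25 higher passed. At p and 1.6-fold that test gave 87 of all probes higher, as did the 1.6-fold limit on limma's calls. With 1 probe a gene, 3 heavy chain genes were lower by the brightest probe (sarcomeric median -0.092). That median rests on saturated probes and does not measure a change. The brightest probes of Myh1, Myh3, Myh4, Myh7 and Myh8 were saturated in every untreated channel. By the brightest probe never saturated, 3 heavy chain genes were lower too (sarcomeric median -0.77, non-muscle -0.66). Probes saturated in no channel gave a sarcomeric median of -0.97. Without the dye term 342 of all probes were lower and 87 higher. The fit with no replicate block, which also has no dye term, gave 315 lower and 70 higher and 6 heavy chain probes. With the dye term kept, a fit added after seeing the data, it gave 285 and 64, against 525 and 208 with both block and dye term, and 6 heavy chain probes. The authors' deposited table gave 135 higher and processed signals 111. The cause of these shifts was not tested. Median centring gave 10 lower heavy chain probes, with Myh4 A_52_P602147 at -0.64 (limma, adjusted p = 0.012).

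Leaving out 1 array gave 4 to 9 heavy chain probes lower, and 184 to 452 lower and 30 to 159 higher of all probes; the lowest of these counts over all probes came without replicate 2. Myh8 A_52_P363051 lost its call without replicate 1 (adjusted p = 0.054), 2 (0.11) or 4 (0.053). Without 1 array Myh1 A_52_P257638 ran from -0.59 to 0.014, with the sign turned without replicate 2. Signs also turned in green alone for Myh14 A_52_P663828 (0.13) and Myh10 A_52_P680681 (-0.14), none of which was called. For Myh3, Myh7 and Myh9 every probe was saturated in untreated RNA on all 4 arrays, so the size of a change cannot be read.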
